A study of Mus musculus with 2 samples.

Results

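Shared SRCAP peaks at CpG-rich promoters with coding genes on a single strand were 1984 of the 28718 peaks (6.91%) that a GFP antibody gave in mouse embryonic stem cells. SRCAP is the ATPase of a chromatin remodeller that swaps H2A in nucleosomes for its variant H2A.Z, and the study asked where it sits on the genome. Each member is a peak of the GFP list that overlapped a peak of an SRCAP antibody list (28167 peaks) by at least 1 bp. Its midpoint lay at -1000 to +500 bp of the transcription start site (TSS) of a protein-coding transcript, counted along the gene. The 500 bp around the midpoint had a GC content of at least 55% and a ratio of observed to expected CpG of at least 0.6. Peaks in the promoter windows of coding genes on both strands were left out. Of the 28718 GFP peaks, 7051 lay in a coding promoter window, 6347 of these were one-way and 2505 of those were CpG-rich, and 1984 of the 2505 were shared with the SRCAP list.

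Both lists came from CUT&RUN, in which an antibody directs a nuclease to cut out and release the DNA around its target, on SYAT cells. SYAT is a CGR8 mouse embryonic stem cell line in which both Srcap alleles were extended at their 3′ end by YPet, a fluorescent protein that GFP antibodies bind, and by an auxin-inducible degron, in cells that also express the plant protein OsTir1. Each antibody (GFP, ab290; SRCAP, ESL-103) was used once, on 100000 cells fixed with 0.1% formaldehyde for 5 min, so both groups shared the tagged and degron-bearing background. Stock cultures contain auxinole, an inhibitor of OsTir1, at 200 nM per the labels and 200 µM per the methods, which call this the control condition. How each library was treated is not in the labels. The study's figure legend places its CUT&RUN mapping of SRCAP in control SYAT cells. With 1 library per antibody no value had a replicate check. Intervals in the text are 95% intervals for the count of peaks or genes alone (Wilson for a share, order statistics for a median), and peaks or genes are not independent replicates. The score is the whole number that the authors' peak file gives each peak, at least 13 in both lists with a median of 47 in each, and the read depth behind it is unknown. The lists hold no expression values. Pou5f1, Sox2 and Nanog, which define pluripotent cells, had no promoter peak in either list, so the labelled cell type could not be checked from them.

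CpG-rich promoters, the CpG islands, lack DNA methylation in most cells and serve most housekeeping genes as well as many developmental regulators. H2A.Z is known to occupy the nucleosomes on either side of their nucleosome-depleted start region. Factors that bind there include NFY, a trimer that binds the CCAAT box and can enter nucleosomal DNA, the SP and KLF zinc fingers that bind GC boxes, NRF1, YY1 and the ETS family. A one-way promoter has coding genes on a single strand, which gives every midpoint a signed distance along transcription. At 28 members (1.41%) the midpoint lay in the windows of 2 or more coding genes on that strand.

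Of the 12 motifs searched, the CCAAT box had the widest difference in frequency between promoters with and without these peaks, and the following 5 stretches show it in the members of highest GFP score that carried it inside both peaks and outside every annotated transcript. They were chosen after the motif counts had been seen. Each is written 5′ to 3′ along the gene's strand (GRCm38), with the matches to the NFY motif in capitals, where CCAAT is followed by 1 of the pairs CA, GA, CG or GG, or its reverse complement.
Slc25a42, chr8:70212320-70212445, minus strand: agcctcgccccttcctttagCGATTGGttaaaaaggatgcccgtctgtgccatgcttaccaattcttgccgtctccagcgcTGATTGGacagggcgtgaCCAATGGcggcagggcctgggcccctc
Tbl2, chr5:135149280-135149326, plus strand: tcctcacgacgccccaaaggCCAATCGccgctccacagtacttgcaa
Zswim4, chr8:84237233-84237279, minus strand: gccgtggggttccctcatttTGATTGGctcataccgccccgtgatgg
Hdgfl2, chr17:56079013-56079141, plus strand: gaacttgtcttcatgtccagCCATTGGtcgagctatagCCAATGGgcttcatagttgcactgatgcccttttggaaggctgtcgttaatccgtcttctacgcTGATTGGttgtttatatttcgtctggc
Paip2b, chr6:83831751-83831866, minus strand: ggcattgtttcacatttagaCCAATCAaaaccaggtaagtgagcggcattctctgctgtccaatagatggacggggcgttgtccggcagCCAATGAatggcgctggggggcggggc
Slc25a42 and Hdgfl2 each show 3 marked matches, Paip2b shows 2, and Tbl2 and Zswim4 show 1 each. The matches of Slc25a42 lay at -117 to -38 bp from the TSS and those of Paip2b at -102 to -33 bp, whereas those of Hdgfl2 lay at -598 to -516 bp. Slc25a42, a mitochondrial carrier for coenzyme A, had a GFP score of 425 and an SRCAP score of 276.

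Other promoter motifs were shown by the highest-scoring member with a match placed in the same way, upstream of every annotated TSS. Capitals mark the searched letters: GCGCATGCG for NRF1, a regulator of genes for mitochondria and respiration; AAGATGGCG for YY1; CCGGAAGTG for ETS factors; and GGGGCGGGG for SP and KLF factors. A stretch may hold the reverse complement.
NRF1 at Wdr89, chr12:75669630-75669758, minus strand: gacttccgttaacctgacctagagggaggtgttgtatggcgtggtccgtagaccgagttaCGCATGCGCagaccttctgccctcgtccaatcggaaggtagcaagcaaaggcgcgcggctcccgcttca
YY1 at Emsy, chr7:98656872-98657000, minus strand: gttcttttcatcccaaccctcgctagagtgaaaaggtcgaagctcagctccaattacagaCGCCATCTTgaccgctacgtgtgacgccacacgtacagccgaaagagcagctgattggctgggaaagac
ETS at Mtor, chr4:148448285-148448413, plus strand: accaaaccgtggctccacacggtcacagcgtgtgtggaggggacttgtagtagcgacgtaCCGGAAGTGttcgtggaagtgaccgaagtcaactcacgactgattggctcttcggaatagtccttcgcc
SP/KLF at Slc25a42, chr8:70212638-70212766, minus strand: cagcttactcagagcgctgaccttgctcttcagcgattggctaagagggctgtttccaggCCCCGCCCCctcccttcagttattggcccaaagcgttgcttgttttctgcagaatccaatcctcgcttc
Each of these 4 stretches also held 1 NFY match, left in lower case. The Wdr89 peaks scored 229 (GFP) and 143 (SRCAP). The peaks at Mtor, the kinase that couples growth to nutrients, scored 228 and 162. Those at Emsy scored 102 and 254, the order of the antibodies reversed. Matches at or past the TSS were left out by this choice. The YY1 match at Emsy lay at -157 bp and the ETS match at Mtor at -262 bp. All matches near members had medians of +19 bp for YY1 and -22 bp for ETS.

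Sharing was frequent at these promoters. Of the 2505 GFP peaks at CpG-rich one-way promoters, 79.2% (77.6 to 80.7%) overlapped an SRCAP peak, against 62.9% (61.3 to 64.4%) of 3842 at CpG-poor one-way promoters, 80.1% (77.0 to 82.9%) of 704 at bidirectional promoters and 51.6% (50.9 to 52.2%) of 21667 outside coding promoter windows. Seen from the SRCAP list the contrast between compositions was smaller, with 69.9% (68.4 to 71.5%) of 3331 CpG-rich and 67.1% (65.4 to 68.7%) of 3112 CpG-poor one-way peaks shared. The share rose with the score. In 4 equal classes from the lowest to the highest GFP score it was 56.6%, 74.6%, 87.7% and 97.9%, so that 13 of 626 peaks in the top class had no SRCAP partner. The 521 unshared peaks at the same class of promoter had a median score of 37 (35 to 39) and a median width of 248 bp (241 to 258).

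Scores of the members spread widely around similar medians for both antibodies. The GFP score had a median of 63 (61 to 66), quartiles of 43 and 101 and extremes of 14 and 1044. It was at or above the median of the whole list in 71.2% of the members, and the SRCAP score in 77.7%. The same shares were 71.7% and 69.6% for shared CpG-poor one-way peaks, and 79.8% and 78.4% for shared bidirectional peaks. Sharing was part of the rule and rose with the score, so these shares describe peaks already picked toward high scores. The paired SRCAP score had a median of 73 (69 to 74) and reached 787. Shared peaks at CpG-poor one-way promoters had medians of 64 (62 to 67) and 63 (60 to 66), so the GFP scores overlapped between the compositions and the SRCAP scores were higher in the CpG-rich class. Bidirectional promoters had higher GFP scores than the members, at 76 (72 to 81), and an SRCAP score of 79 (74 to 83) whose interval met that of the members. Peak widths had medians of 391.5 bp (381 to 402) for GFP and 354 bp (347 to 363) for SRCAP, and the GFP peak was the wider in 58.8% of pairs.

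Within the CpG-rich class, whose range of composition the rule limits, the score went at most weakly with composition. Across the 1984 peaks Spearman's rho of the GFP score was -0.02 with the CpG ratio and -0.10 with the GC content, and 0.42 with the peak width. Cut into 3 equal classes by CpG ratio, the members had median GFP scores of 62, 68 and 61 and median SRCAP scores of 67, 80 and 71 from the lowest to the highest class. Scores of the 2 antibodies were related across peaks, with rho = 0.551, against 0.551 at CpG-poor one-way and 0.534 at bidirectional promoters. These points share 2 libraries, and the correlation is across peaks.

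**Figure D1:**
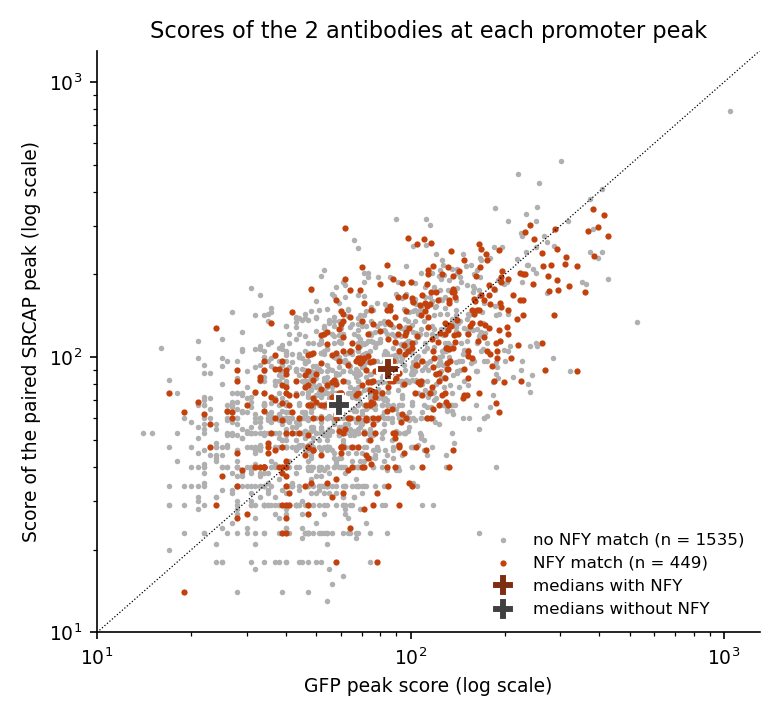
Scores of the 1984 shared peaks, with the GFP peak score on the x axis and the score of the paired SRCAP peak on the y axis, both without unit and on log scales. Orange points are peaks with an NFY match within 200 bp at the midpoint (n = 449), grey points have none (n = 1535), and the crosses at 85 and 91 (with) and 59 and 67 (without) are the medians. Sfi1 (1044 and 787) stands alone at the upper right.

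Sfi1, which codes for a centrin-binding protein of the centrosome, had the highest score of the members with both antibodies, 1044 (GFP, chr11:3193006-3193846) and 787 (SRCAP), with its midpoint 2 bp upstream of the TSS. The next GFP score, 528 at Cep97, another centrosomal protein, had an SRCAP score of 134. Heatr1, needed for ribosome biogenesis, had nearly equal scores of 409 and 410. Tomm40, the channel of protein import into mitochondria, had 415 and 330, and Usp22, the deubiquitinase of the SAGA coactivator, had 381 and 345. The remaining members among the 12 of highest GFP score were Mtrf1l (428 and 193), Slc25a42, Tbl2 (407 and 241), Zswim4 (396 and 298), Hdgfl2 (395 and 230), Paip2b (384 and 234) and Desi2 (381 and 292). Of these 12, the GFP score was the higher in 11, Heatr1 being the exception. They were picked by the GFP score, so this order is not a comparison of the antibodies.

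Some pairs ranked far apart. Haus4, a subunit of the augmin complex of the spindle, had a GFP score of 165 and an SRCAP score of 23. Klf11, a transcription factor of the KLF family, had 187 and 40, and Tmem170b had 118 and 29. In the other direction Vps8, a subunit of an endosomal tethering complex, had 31 and 179, the RNA helicase Upf1 of nonsense-mediated decay had 27 and 146, and Thoc1 of the mRNA export complex THO had 33 and 168. The widest GFP peaks lay at Ell, an elongation factor of RNA polymerase II (1325 bp, scores 254 and 352), Dnpep (1282 bp, 137 and 197) and Sigirr (1238 bp, 61 and 89).

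Members lay mostly just upstream of the start site. The GFP midpoint had a median of -106 bp (-116 to -94) from the nearest coding TSS, and that of CpG-poor one-way peaks was farther upstream, at -168 bp (-179 to -160). Bidirectional promoters had a median of -2 bp (-9 to 7), measured from the nearest coding TSS of either strand. Starts on both strands shorten that distance, so it is not the same measure as for one-way promoters. Within 20 bp of the TSS lay 9.22% of the midpoints, in the 400 bp upstream of that zone 61.1%, and in the 400 bp downstream of it 24.1%. Farther upstream lay 4.89% (4.02 to 5.93%) of the members and 14.9% (13.5 to 16.4%) of the CpG-poor peaks. Composition was measured at the midpoint, and the GC content of promoters with a member fell from 64.9% in the 50 bp from -100 bp to 51.7% in those from -400 bp, so the rule itself bears on how far upstream a member can lie.

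**Figure D2:**
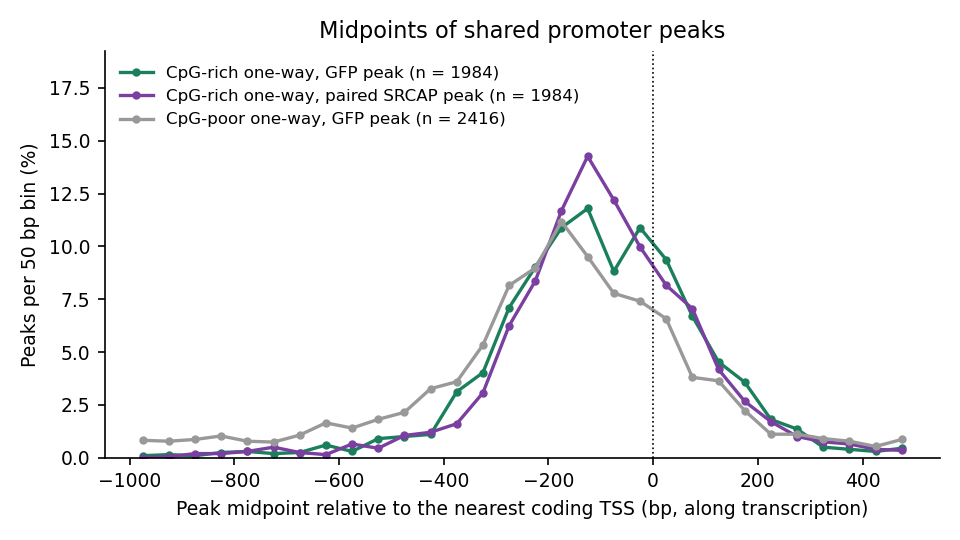
Midpoints of shared promoter peaks, as the share of peaks (%) in each 50 bp bin against the signed distance (bp) from the nearest coding TSS. The green and purple lines (GFP peaks and paired SRCAP peaks at CpG-rich one-way promoters, n = 1984 each, 11 SRCAP midpoints lying outside the axis) run close together with most of their peaks upstream, and the grey line (CpG-poor one-way promoters, n = 2416) extends farther upstream.

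Downstream midpoints made up 28.7% (26.8 to 30.8%) of the members, against 21.5% (19.9 to 23.2%) of the CpG-poor shared peaks and 35.3% (31.3 to 39.5%) of the 521 unshared peaks of the GFP list. The paired SRCAP midpoint was downstream in 27.2% (25.3 to 29.2%). Both midpoints were upstream at 64.4% of the members and both downstream at 20.6%. Upstream members had a median SRCAP score of 74 (73 to 80) and downstream members of 65 (60 to 70), whereas their GFP scores, 65 (62 to 68) and 61 (57 to 63), had overlapping intervals.

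The 2 antibodies placed their peaks close together. The distance between paired midpoints had a median of 52 bp (48 to 55), the shift along transcription was 6 bp (3 to 10), and the overlap was 286 bp (280 to 295). The GFP peak covered the TSS at 61.1% of the members and the SRCAP peak at 64.6%, the GFP peak spanning typically from -312 to +87 bp. Midpoints lay outside coding transcripts at 58.5%, in an untranslated exon at 22.5%, in an intron at 14.6% and in a coding exon at 4.33%. Annotated repeats were absent from 51.6% of the peaks. A noncoding transcript started on the other strand at 14.4% (12.9 to 16.0%) of the members at 8.77% (7.71 to 9.97%) of the CpG-poor peaks and at 13.2% (10.6 to 16.4%) of the unshared CpG-rich peaks. Members with and without such a transcript had median GFP scores of 65.5 (61 to 72) and 62 (61 to 66).

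Peaks just inside and just outside the limits of the rule are given here with their GFP and SRCAP scores. Ahi1 was a member at a GC content of 55% (scores 22 and 35) and 2610318N02Rik fell outside at 54.8% (68 and 41). Vsnl1 was inside at a CpG ratio of 0.6003 (30 and 47) and Hic2 outside at 0.59997 (52 and 40). The farthest upstream member was that of Fbrs, at -961 bp (147 and 237), with Agbl5 outside at -1074 bp. Cystm1 was the farthest downstream, at +500 bp (19 and 23), with Arsb outside at +505 bp. The smallest overlap between the lists was 6 bp, at Tenm3.

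To ask which genes hold such a peak, each protein-coding gene with a CpG-rich one-way start was taken as eligible, which gave 9679 genes. A member lay at 1876 of them, 19.4% (18.6 to 20.2%), and this share is the background for the gene lists. Another 3863 (39.9%) had only other peaks in the promoter window, and 3940 (40.7%) had no peak of either list. Counting also genes whose own start was not CpG-rich, 1999 genes held a member, 1987 with 1, 11 with 2 and 1 with 3. Ing1, a subunit of a histone deacetylase complex, had the 3 peaks, the strongest scoring 116 and 173. Opa3, a mitochondrial protein, had GFP scores of 117 and 224 on either side of its start and 1 SRCAP peak of 203 under both. Klf11 had GFP scores of 36 and 187, with an SRCAP score of 40 at both. Genes with a member had a median length of 26.9 kb (24.9 to 28.4), and those with no peak 32.4 kb (30.5 to 34.5). Genes with only other peaks had 28.1 kb (26.6 to 29.2), an interval that overlaps that of genes with a member. Single-exon genes made up 0.80% (0.49 to 1.32%) of genes with a member, 1.89% (1.51 to 2.37%) of those with only other peaks and 3.68% (3.14 to 4.31%) of those with no peak.

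**Figure D3:**
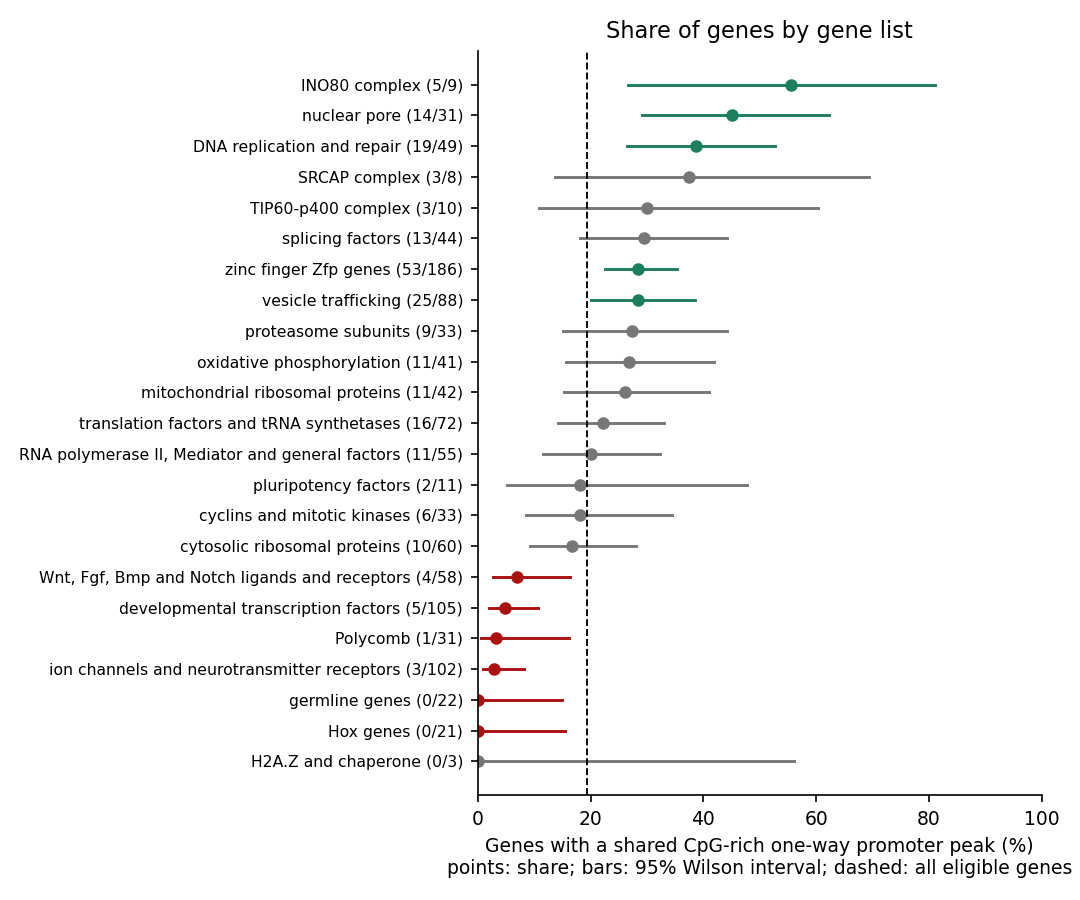
Share of eligible genes (%) whose promoter holds a shared CpG-rich one-way peak, for 23 gene lists with the counts in brackets. Points are shares, bars 95% Wilson intervals and the dashed line the 19.4% of all 9679 eligible genes; the intervals of 5 lists lie above it, those of 6 below it and those of 12 hold it.

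Genes of DNA replication and repair held members at 19 of 49 (38.8%, interval 26.4 to 52.8%) with a median GFP score of 68. Fancc of the Fanconi anaemia core complex had scores of 244 and 86, Ercc1 of the nuclease for nucleotide excision repair had 167 and 133, and Fancg had 108 and 52. The helicase subunits Mcm5 (72 and 90) and Mcm6 (52 and 120) and the polymerase subunit Pold1 (82 and 136) had the higher score with the SRCAP antibody. Nuclear pore and transport genes held members at 14 of 31 (45.2%, 29.2 to 62.2%), with a median of 51. The exporter Xpo1 had 109 and 73, the importin Ipo9 had 98 and 82, and the pore scaffold Nup93 had 76 and 132. Nup107 (45 and 137) and Nup214 (69 and 175) had lower GFP than SRCAP scores. Keeping only peaks that scored no lower than their list's median, nuclear pore genes held members at 16.1% against 11.7% of all eligible genes, and their interval of 7.09 to 32.6% then held the background.

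Vesicle trafficking genes, taken by their Rab, Vps and Snx symbols, held members at 25 of 88 (28.4%, 20.04 to 38.6%), with a median score of 70. One of the 25 was Vps72, which by function belongs to the SRCAP complex, and without it the share was 24 of 87 (27.6%), whose lower limit of 19.3% lies just under the background. Rab11b of recycling endosomes had scores of 246 and 185, Rab3a of synaptic vesicles 231 and 285, and Rab8a 227 and 277. Rab5a, Rab5b and Rab5c, which direct early endosomes, all held members, with GFP scores of 98, 95 and 90. Zfp genes, which code for zinc finger proteins, many with a KRAB repressor domain, held members at 53 of 186 (28.5%, 22.5 to 35.4%), with a median of 71. On chromosome 7 the share was 20 of 49 (40.8%), on chromosome 8 it was 7 of 16 (43.8%), and on the others 26 of 121 (21.5%, 15.1 to 29.6%). Zfp574 had scores of 248 and 268, Zfp963 had 209 and 99, and Zfp110 had 187 and 96. With composition taken over 1000 bp the Zfp share was 24.4% (17.9 to 32.4%) against 21.6% of all, and the interval then held the background. The 53 genes shared 52 peaks, since Zfp617 and Zfp882 have the same peak (87 and 101).

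Housekeeping lists lay around the background. Oxidative phosphorylation genes held members at 11 of 41 (26.8%), mitochondrial ribosomal proteins at 11 of 42 (26.2%), proteasome subunits at 9 of 33 (27.3%), splicing factors at 13 of 44 (29.5%), translation factors and tRNA synthetases at 16 of 72 (22.2%), and cytosolic ribosomal proteins at 10 of 60 (16.7%). Subunits of the 3 RNA polymerases, Mediator and the general factors had members at 11 of 55, and cyclins and mitotic kinases at 6 of 33 (18.2%). All of these intervals held 19.4%. Ndufs8 and Ndufv1, subunits of respiratory complex I, had scores of 263 and 240, and of 126 and 226. Atp5b of the ATP synthase had 104 and 99. Of the mitochondrial ribosomal proteins Mrps14 had 88 and 129, Mrps28 had 81 and 61, and Mrps36 had 68 and 86. The proteasome assembly chaperone Psmg4 had 118 and 74, and the proteasome subunits Psmd11 and Psmd7 had 91 and 88, and 63 and 94. The splicing factors Sf3b6, U2af1 and Sf3b4 had 82 and 54, 69 and 56, and 65 and 40. The initiation helicase Eif4a1 had 119 and 99, the threonyl-tRNA synthetase Tars 103 and 163, and Eef2kmt 83 and 71. Among cytosolic ribosomal proteins Rpl22 had 176 and 61, Rps13 had 130 and 132, and Rplp2 had 123 and 57. Polr3k, a subunit of RNA polymerase III, had 133 and 161, Med11 of Mediator 125 and 193, and Taf8 of TFIID 101 and 108. Ccna2, the cyclin of S phase, had 117 and 121, Cdk10 had 103 and 59, and the mitotic kinase Aurkb had 75 and 41.

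Developmental genes with CpG-rich starts rarely held a member. None of 21 Hox genes did (interval up to 15.5%), and 19 of them had no peak of either list. Of 105 other developmental transcription factors 5 did (4.76%, 2.05 to 10.7%). The highest GFP scores among them were those of Nkx6-1 (scores 76 and 57), Sox12 (62 and 38) and Tbx3 (52 and 58), with midpoints at -505, -832 and -13 bp. Among Wnt, Fgf, Bmp and Notch ligands and receptors, 4 of 58 held a member (6.90%, 2.71 to 16.4%). They were Fzd9 (66 and 52), Bmp8a (64 and 65), Fgf12 (54 and 34) and Fzd7 (22 and 67). Ion channels and neurotransmitter receptors had members at 3 of 102 (2.94%, 1.01 to 8.29%), namely Chrnb1 (109 and 169), Cacna1g (76 and 60) and Kcnj10 (40 and 53). No member lay at 22 germline genes (interval up to 14.9%). Of 31 genes for Polycomb subunits only Cbx7 held one (54 and 52), a share of 3.23% (0.57 to 16.2%), while 17 had another peak and 13 none. Other peaks alone lay at 34 of the 105 transcription factors, 20 of the 58 ligands and receptors, 9 of the 22 germline genes and 20 of the 102 channels. No peak lay at 66, 34, 13 and 79 of them. Of all eligible genes 39.9% had only other peaks and 40.7% had none. Genes with no peak made up a larger share than that in each of these lists and among the Hox genes. Among the Polycomb genes more had another peak (17) than none (13).

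The genes of the SRCAP complex itself were examined one by one. Vps72, the subunit that contacts H2A.Z, held a member with scores of 21 and 56 at +45 bp. Yeats4, an acyl-lysine reader, had 95 and 45 at -164 bp, and the AAA ATPase Ruvbl1 had 61 and 50 at +155 bp. Srcap had overlapping promoter peaks (81 and 26), but its GFP midpoint at -435 bp had a GC content of 41.6%. Znhit1 (54 and 53) and Ruvbl2 (58 and 46) had overlapping peaks at bidirectional promoters, and Actr6 (38 and 47) at a GC content of 53.6%. Actl6a had a GFP peak of 54 with no SRCAP partner, and Dmap1 and Actb had no promoter peak. With 8 eligible genes the share of 37.5% had an interval of 13.7 to 69.4%, which holds the background. With a reciprocal overlap of 50% it was 12.5% (2.24 to 47.1%) against 15.6% of all.

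None of the H2A.Z genes held a member. H2afz had no promoter peak. H2afv had overlapping peaks of 239 and 60, and Anp32e, the chaperone that removes H2A.Z, had 115 and 61, in both cases with a GFP midpoint below 55% GC. Of the related TIP60-p400 complex Ep400, the paralogous ATPase, had scores of 71 and 142, Morf4l2 had 193 and 157 and Meaf6 had 68 and 53, which made 3 of 10 eligible genes (30.0%, 10.8 to 60.3%, an interval that holds the background). With no transcript of any kind starting on the other strand, none of the eligible TIP60-p400 genes held a member (interval up to 35.4%). The remodeller INO80 had members at 5 of 9 eligible genes (55.6%, 26.7 to 81.1%). Mcrs1 had 107 and 121, Nfrkb 43 and 29, Ino80c 40 and 27, the ATPase Ino80 itself 35 and 48, and Actr8 28 and 40. With only peaks that scored no lower than their list's median it was 11.1% (1.99 to 43.5%) against 11.7% of all, and with a reciprocal overlap of 50% it was 33.3% (12.1 to 64.6%) against 15.6%. Of 11 eligible pluripotency genes Klf5 (79 and 77) and Tbx3 held a member (18.2%, 5.14 to 47.7%), and the interval holds the background. Of all 22 in the list, 13 had no promoter peak in either list. Dppa2 had overlapping peaks of 132 and 40 at a GC content of 45.4%.

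Chromosome 8 held the largest share of any chromosome. On it 145 of 503 eligible genes had a member (28.8%, 25.04 to 32.9%), against 19.3% (18.5 to 20.1%) of 8914 on the other autosomes. Its 154 members also scored higher, with medians of 78.5 (70 to 93) for GFP and 103.5 (90 to 117) for SRCAP, against 62 (60 to 64) and 72 (67 to 74) for 1813 members of the other autosomes. Slc25a42, Zswim4, Rab3a, Rab8a, Ell and Upf1 are among them. On chromosome X 14 of 261 genes had a member (5.36%, 3.22 to 8.80%), Morf4l2 being 1 of them, and its 17 members had median scores of 47 and 40. Copy number and input signal along the chromosomes were not measured in these lists, and their part in these values was not tested.

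The NFY motif went with both the presence and the score of these peaks. In the 200 bp at the midpoint it was found in 22.6% (20.8 to 24.5%) of the members, 16.8% (15.3 to 18.3%) of shared CpG-poor one-way peaks, 25.8% (21.6 to 30.5%) of 372 shared CpG-rich bidirectional peaks and 11.7% (9.22 to 14.8%) of the 521 unshared CpG-rich one-way peaks. In 500 bp at the midpoint it was found in 39.4% (37.2 to 41.5%) of the members, and in 200 bp at the SRCAP midpoint in 26.5% (24.6 to 28.5%). Members with it had median scores of 85 (76 to 92) and 91 (84 to 99), and those without 59 (57 to 61) and 67 (65 to 70). The higher scores held within each of 3 equal classes of peak width, at 61 against 45, 87 against 62 and 113 against 79 for GFP and at 69 against 55, 91 against 71 and 118 against 82 for SRCAP. With the number of matches in the whole GFP peak, the median GFP score went from 56 at none (1248 peaks) to 70 at 1 (463), 96 at 2 (174), 112 at 3 (62) and 168 at 4 or more (37). The median SRCAP score went from 63 to 82, 97, 100 and 149. The width went from 356 to 557 bp along the same classes, so wider peaks also had more sequence to match.

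Much of the contrast with unshared peaks went together with the score. In 4 equal classes of the GFP score the motif was found in 12.7%, 14.99%, 22.6% and 34.3% of shared peaks and in 8.82%, 10.7%, 20.8% and 30.8% of unshared peaks, whose intervals overlapped in every class. The top class had only 13 unshared peaks.

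The same motif was then counted in a window that does not depend on any peak, from 250 bp upstream to 50 bp downstream of 1 TSS for each of the 9679 eligible genes. It was present at 34.5% (32.4 to 36.7%) of promoters with a member, 23.1% (21.8 to 24.4%) of those with another peak and 14.0% (12.96 to 15.1%) of those with none, and at 21.6% of all. Read the other way, 31.0% (29.0 to 33.0%) of 2090 genes with the motif and 16.2% (15.4 to 17.0%) of 7589 genes without it held a member. The share was 27.5% (25.4 to 29.8%) with 1 match, 37.0% (32.5 to 41.8%) with 2 and 51.5% (43.1 to 59.8%) with 3 or more, the last over 134 genes. The order held within 3 equal classes of GC content at the TSS, at 31.5% against 20.5% in the lowest, 36.1% against 17.1% in the middle and 23.0% against 11.4% in the highest class. Chromosome 8 showed the same order, at 48.3% against 22.9%.

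**Figure D4:**
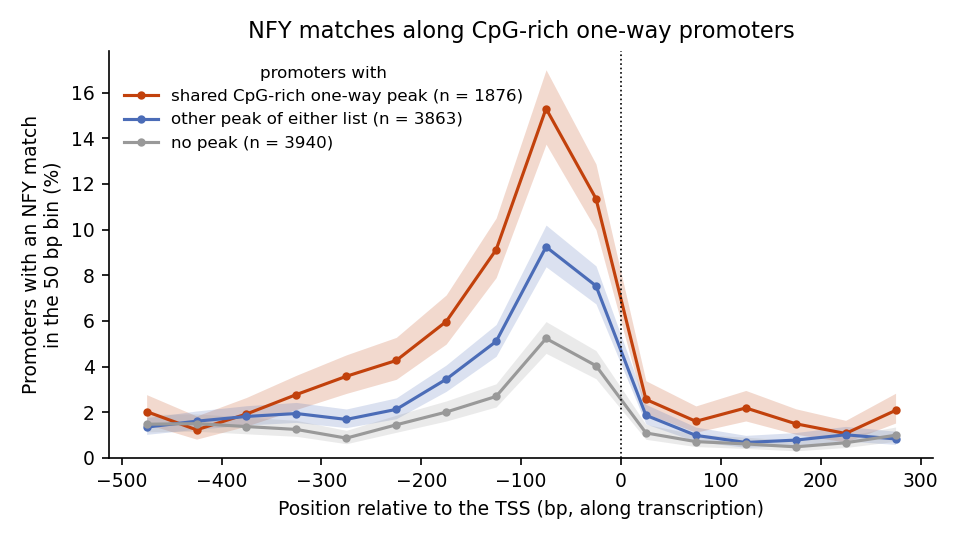
Share of CpG-rich one-way promoters (%) with an NFY match in each 50 bp bin along transcription (bp from the TSS), for promoters with a shared peak of this class (orange, n = 1876), with another peak (blue, n = 3863) and with no peak (grey, n = 3940). Bands are 95% Wilson intervals. All 3 lines are highest at -100 to -50 bp, where they reach 15.3%, 9.24% and 5.23%.

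NFY matches lay mostly upstream of the start site. Across the members 1227 matches in the 500 bp at the midpoint had a median position of -85 bp (-92 to -79) from the TSS and quartiles of -174.5 and -36 bp, in windows that themselves lie mostly upstream; 84.8% were upstream, and 50.9% (48.1 to 53.7%) read along the gene's strand. The GFP peak covered 87.6% of them and the SRCAP peak 87.1%. In the 50 bp bin at -100 to -50 bp, 15.3% of promoters with a member had a match, 9.24% of those with another peak and 5.23% of those with none. Peaks with several boxes had 426 gaps between neighbouring boxes, with a median of 64 bp (57 to 72) and quartiles of 38 and 125.75 bp. The 5 bp class that held the most gaps was 30 to 35 bp, with 38 of them.

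**Figure D5:**
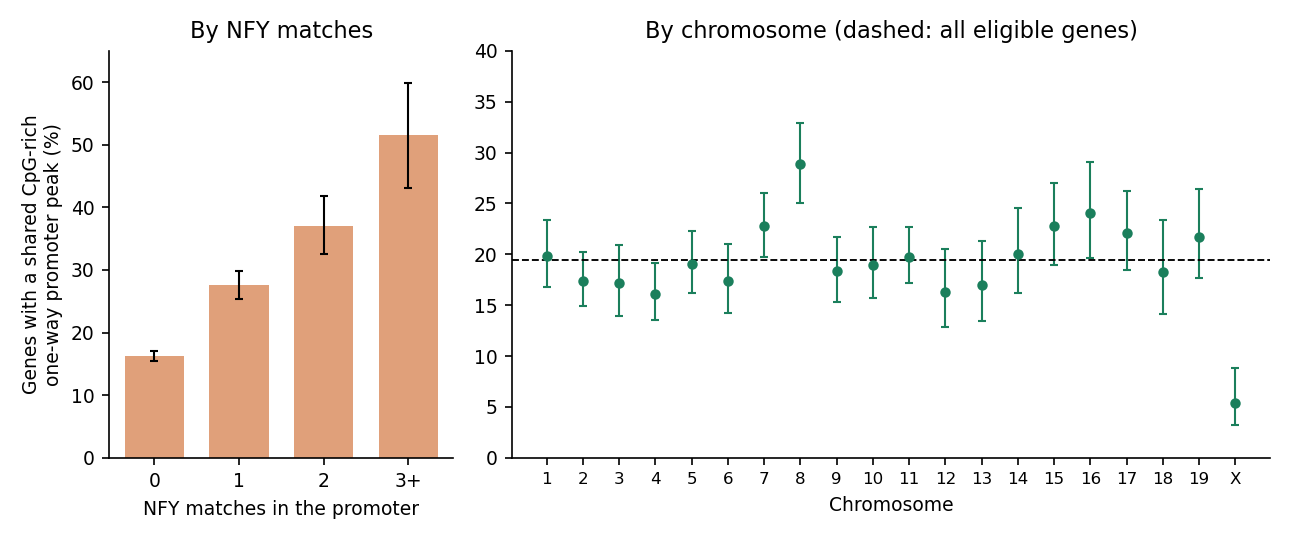
Share of eligible genes (%) with a shared CpG-rich one-way peak, at left by the number of NFY matches at -250 to +50 bp of the TSS (bars with 95% Wilson intervals, 16.2% at none to 51.5% at 3 or more) and at right by chromosome (points with the same intervals). The dashed line is the 19.4% of all eligible genes, above which chromosome 8 stands at 28.8% and under which chromosome X stands at 5.36%.

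GC boxes gave a different picture by window. The SP/KLF motif was found in the 200 bp at the midpoint of 12.6% (11.2 to 14.1%) of the members, 11.3% (8.46 to 14.9%) of shared CpG-rich bidirectional peaks and 5.76% (4.06 to 8.10%) of unshared CpG-rich peaks. At -250 to +50 bp of the TSS, however, 28.1% (26.1 to 30.2%) of promoters with a member and 28.4% (27.0 to 29.9%) of those with no peak had it. The ETS motif was found at the midpoint of 2.87% (2.22 to 3.70%) of the members and 0.77% (0.30 to 1.96%) of unshared peaks. It was in 5.12% (4.21 to 6.21%) of promoters with a member, 4.56% (3.94 to 5.26%) with another peak and 2.87% (2.39 to 3.44%) with no peak. YY1 was found in 3.62% (2.87 to 4.57%), 3.42% (2.89 to 4.04%) and 2.11% (1.70 to 2.60%) of these promoters. For both motifs the intervals of promoters with a member and with another peak overlapped. YY1 matches near members had a median position of +19 bp (9 to 27) and read along the gene's strand in 78.8% (69.0 to 86.2%) of 85 cases, unlike the NFY box. The bin from 0 to 50 bp held YY1 most often in each group of promoters, at 2.45%, 2.17% and 1.62%.

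Among the motifs with scores for at least 13 members, NRF1 had the widest gap between the medians of the antibodies. The 43 members with it had a median GFP score of 47 (40 to 61) and a median SRCAP score of 87 (62 to 113). The 23 members with the CTCF motif came close, with 61 (51 to 75) and 98 (72 to 105). All members had medians of 63 and 73, and scores were not rescaled between libraries. Upf1, named above for its rank difference, is 1 of the 43 with 27 and 146. Wdr89, shown above with an NRF1 match, had the reverse order with 229 and 143. GFP peaks covered 67.3% (59.8 to 73.9%) of 168 NRF1 matches near members and SRCAP peaks 86.3% (80.3 to 90.7%). NRF1 was found at the midpoint of 2.17% (1.61 to 2.91%) of the members and 1 of the 521 unshared peaks. Promoters with a member had it at 3.89% (3.11 to 4.86%), and all promoters at 3.72% (3.36 to 4.12%). The share was 4.76% (4.14 to 5.48%) with another peak and 2.61% (2.16 to 3.16%) with no peak. The interval of promoters with a member overlapped both of these, the last one narrowly.

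CTCF and TATA motifs were rarer in promoters with a member than in those with no peak. A CTCF motif (AGGGGGCGC) was found in 2.03% (1.48 to 2.77%) of promoters with a member, 2.87% with another peak and 4.21% (3.63 to 4.89%) with no peak. TATAAA was found in 3.52% (2.77 to 4.45%), 5.38% and 5.51% (4.84 to 6.26%), and between -40 and -15 bp, where a TATA box works, in 0.48% (0.25 to 0.91%) of promoters with a member and 0.81% (0.58 to 1.14%) of those with no peak, whose intervals overlap. The octamer bound by OCT4 (ATGCAAAT) was at the midpoint of 0.66% (0.38 to 1.12%) of the members. Unshared CpG-rich one-way peaks had it at 0.77% (0.30 to 1.96%) and shared CpG-rich bidirectional peaks at 0.54% (0.15 to 1.94%), with overlapping intervals. Shared CpG-poor one-way peaks had it at 1.86% (1.39 to 2.48%), above the interval of the members. The E-box CACGTG was found in 10.5%, 11.6% and 10.96% of promoters with a member, another peak and no peak. None of the 12 motifs searched was present in the 200 bp at the midpoint of 56.96% (54.8 to 59.1%) of the members, and absence says only that these letters were not in that window.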

How the data were processed

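Peaks were analysed from 2 CUT&RUN libraries of SYAT mouse embryonic stem cells, 1 per antibody. Per the labels, inserts were 250 bp and reads 75 nt paired, and the submitters' processing notes name the builds mm10 and dm6 and the tools STAR, Picard and MACS2. For ChIP-seq and CUT&Tag the methods describe unique alignment, removal of duplicates and of other chromosomes, calling against an input and exclusion of blacklisted regions. Tool versions are listed there for the whole study, with a MACS release other than the one the notes name. Which control and filters these CUT&RUN lists had is not given in the sources used here. The methods name the GFP antibody for CUT&Tag, so its use in CUT&RUN is known from the labels. The deposited files give each peak's position and a whole-number score made by the authors, whose definition is not stated and which gives no read depth. Scores were not rescaled between libraries.

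Coding transcripts (58745) were taken from GENCODE vM21 on GRCm38 and sequence from the RefSeq copy of that assembly. Each GFP peak was paired with the SRCAP peak of largest overlap. Genes were eligible where the 500 bp at a coding TSS met the composition limits and that TSS lay in no coding promoter window of the other strand. The exact letters of 12 motifs were searched on both strands, overlaps allowed. The members, gene lists and motifs were chosen with earlier results of these data known, and the counts of NFY matches, the classes by GC, width and score and the 5 NFY stretches after seeing the values. Genes were named by rule: the 12 highest GFP scores, the SRCAP, H2A.Z, TIP60-p400 and pluripotency genes, the 3 highest GFP scores of each other list, the 3 largest rank differences each way, the 3 widest peaks, the peaks nearest each limit and the genes with most peaks. The Mcm, Pold1, Rab5, Nup107, Nup214 and Fzd7 genes, the other INO80 genes and the genes of the motif stretches were named after their values were seen. No test was run, since neither antibody had a replicate. Alternatives were a score threshold, a reciprocal overlap of 50%, composition over 1000 bp, basic transcripts, no chromosome 8, a stricter one-way rule, and other motif windows and reference points. Scripts were tested on simulated data and used Python 3.11.15, numpy 2.4.6, pandas 2.3.3, scipy 1.17.1, pysam 0.24.0, samtools 1.23.1 and matplotlib 3.10.9.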

Additional observations from a re-analysis of the deposited data

How the results depend on the processing

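No paired analysis was possible because a single GFP and a single SRCAP library were compared. With only peaks at or above each list's median score, 1194 members were left, with median scores of 88.5 (GFP) and 96.5 (SRCAP), widths of 447.5 and 396 bp, 26.5% downstream midpoints and rho = 0.471. Under it 75.9% of the GFP peaks were shared, 11.7% of eligible genes held a member, as did 21.9% of genes with the NFY motif and 8.87% without, and 2 gene lists lay above and 2 below all genes (above, DNA replication and repair and Zfp genes; below, developmental transcription factors and ion channels). The cause was not tested. A reciprocal overlap of 50% gave scores of 68 and 78, an SRCAP width of 367 bp, 26.3% downstream midpoints, 63.5% shared, 15.6% of genes, and 25.4% and 12.95% with and without NFY, and INO80 genes were no longer above. Composition over 1000 bp gave a GFP width of 379 bp, a median midpoint of -165 bp, 19.4% downstream, 76.1% shared, 21.6% of genes, and 34.8% and 17.9% with and without NFY. Under it the Zfp genes were no longer above all genes and the proteasome subunits were. Without any transcript start on the other strand the share with a noncoding start was 0 by construction, and vesicle trafficking was no longer above. Leaving out chromosome 8 or using basic transcripts moved none of these values beyond their counting intervals. Within their counting intervals (counts of lists, within 1.5 times) stayed 129 of 150 values for gene lists, 79 of 96 for motifs and 58 of 81 others. The shares of the INO80, SRCAP and TIP60-p400 genes, from 8 to 10 eligible genes each, went from above to below that of all genes under the score threshold, the reciprocal overlap and the stricter one-way rule, in that order. The lists of pluripotency factors, translation factors, RNA polymerase subunits and cyclins, whose intervals held the share of all genes throughout, also changed side under some alternatives. Depth is unknown, and weak promoter peaks below the authors' threshold could not be counted.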
